A study of Rattus norvegicus with 24 samples.

Results

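Thyroxine (T4), the main hormone released by the thyroid, was compared with placebo in rats with a myocardial infarction (MI) across all 22523 probes of an Illumina rat BeadChip. The arrays were chosen by their labels: 8 arrays of 4 MI rats given T4 (MI+T4, replicates 5 to 8) and 8 arrays of 4 MI rats given placebo (MI, replicates 5 to 8), which is 16 of the 24 arrays of the series. Each rat was hybridized on 2 arrays, and their mean was taken, so that n is 4 rats in each group. All were female Sprague-Dawley rats, 3 months of age by the labels, in which the left anterior descending coronary artery was tied. Right after surgery a pellet was placed under the skin, which held 3.3 mg of T4 for release over 60 days in the MI+T4 rats and no hormone in the MI rats. After 4 weeks RNA was taken from the base of the left ventricle, outside the infarct. Another 4 rats with a sham operation and a placebo pellet (Sham, replicates 1 to 4) entered the fit for its estimate of the spread, and their levels stand beside some results. As a model the groups are limited to rats whose infarcts fell within a size window, and the MI and MI+T4 rats that share a replicate number are not pairs. The labels call the rats biological replicates, and nothing shows that hearts were pooled.

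T4 is turned into triiodothyronine (T3) by deiodinases in the tissues. T3 binds the receptors Thra and Thrb, which sit on DNA with a retinoid X receptor and switch genes on or off. In rodent heart the hormone is known to raise the fast myosin heavy chain Myh6 and the calcium pump Atp2a2, and to lower the slow myosin Myh7 and phospholamban. It also speeds oxidative metabolism and acts on vessels and matrix.

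The values are log2 signals, and the median probe measured 7.81, so levels close to that are near the bottom of the scale, and those above 16 are near its top, where a difference can be understated. The arrays of a rat correlated at 0.9966 to 0.9975, against a median of 0.9924 between rats, and each of the 24 arrays correlated best with the second array of its own rat. Depth is not defined for arrays, and the number of rats limits the precision: the median SD between rats was 0.069 in MI and 0.067 in MI+T4. For the labelled tissue, the 9 measured genes that mark ventricular cardiomyocytes had a median level of 15.9. The 4 measured markers of atrial muscle had a median level of 13.0 and varied between rats. Their summed linear signal was 42882 to 100341 in MI and 31131 to 152909 in MI+T4 rats. The part of atrial tissue in the results was not tested.

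No gene differed between the T4 and placebo rats after adjustment. By limma on the means of the rats, 0 of 22523 probes (0.0%) had an adjusted p under 0.05, and the smallest adjusted p was 0.889. At an unadjusted p under 0.05 there were 1228 probes (5.45%), 675 higher (3.0%) and 553 lower (2.46%) in MI+T4. With both arrays of each rat in the fit and a common correlation between them, 0 probes passed either, and the smallest adjusted p was 0.121. That correlation was 0.243, so this fit counts the 2 arrays of a rat as partly separate values, although the rat is the replicate. On that same fit limma's nested F, a rule that first asks whether a probe differs in any of the comparisons among Sham, MI and MI+T4, called 94 probes between MI+T4 and MI (0.417%), 51 higher and 43 lower. The genes below are therefore given by their values, and an unadjusted p marks how far a difference stands out from the spread between rats for that probe alone. Because 5.45% of all probes reached 0.05, a share of a gene list near that value is not a result about the list. The lists were chosen with earlier results of these data known, so a larger share is not independent evidence either.

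Differences were small over the array. The middle 95% of all probes lay between -0.18 and 0.15 on the log2 scale, and 51.9% of all differences were above 0. Beyond 1.5-fold, 21 probes were higher and 19 lower, and 13 of these had an unadjusted p under 0.05, 11 higher and 2 lower. In 674 probes (2.99%) the 4 rats of a group all lay on the same side of the 4 rats of the other, with 368 higher (1.63%) and 306 lower (1.36%) in MI+T4.

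**Figure D1:**
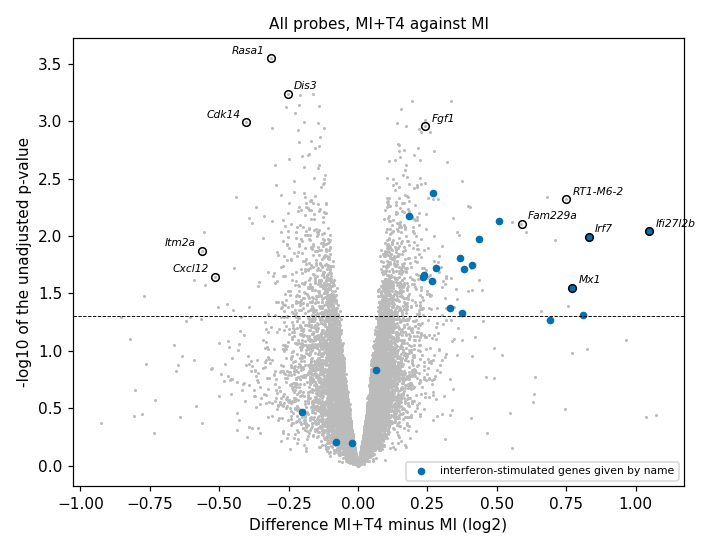
Each grey point is a probe, with the log2 difference between MI+T4 and MI (4 rats each) on the x axis and -log10 of its unadjusted p-value from limma on the y axis. Filled points are interferon-stimulated genes from the list that are given by name or define it, open circles mark labelled genes, and the dashed line is an unadjusted p of 0.05. The named interferon genes lie mostly on the right, up to Ifi27l2b at a log2 difference of 1.05, and no point reached an adjusted p under 0.05.

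Interferon-stimulated genes held the 4 largest of these 11 higher differences, Ifi27l2b, Irf7, Mx2 and Mx1. These genes are switched on when interferon, a signal of antiviral defence, reaches a cell, through factors that bind a short promoter element. Of 38 measured genes of this list, 34 were higher and 4 lower in MI+T4 rats. Of these, 17 were higher at an unadjusted p under 0.05 (44.7% of the list, against 3.0% of all probes in that direction), none was lower, and 10 passed nested F. The list was chosen with earlier results of these data known. Members such as Irf7, Mx1 and Oasl2 are among the genes the study names for T4. This share is therefore not independent evidence. The median difference of the list was log2 0.19, against 0.0025 over all probes, and none passed after adjustment.

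The promoters of these genes are shown because the list is defined by a shared response. Sequences are from RefSeq (GRCr8), each 120 bases that end next to or before the start of transcription, read 5′ to 3′ on the strand of the gene. Capitals mark the core of the interferon-stimulated response element, searched on both strands as GAAA, any 2 bases and GAAA, which on the other strand reads TTTC, any 2 bases and TTTC. Overlapping matches were counted.
Irf7, chr1:205800028-205800147 on the minus strand: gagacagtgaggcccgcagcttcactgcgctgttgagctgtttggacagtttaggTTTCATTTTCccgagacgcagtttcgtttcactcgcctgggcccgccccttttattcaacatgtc
Oasl2, chr12:47383272-47383391 on the minus strand: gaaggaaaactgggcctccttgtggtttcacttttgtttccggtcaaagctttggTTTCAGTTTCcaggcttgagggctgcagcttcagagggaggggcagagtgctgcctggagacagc
Oas1a, chr12:41330346-41330465 on the plus strand: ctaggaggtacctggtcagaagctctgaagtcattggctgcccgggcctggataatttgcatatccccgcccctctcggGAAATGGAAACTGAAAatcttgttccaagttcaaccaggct
Ifi44, chr2:243303841-243303960 on the minus strand: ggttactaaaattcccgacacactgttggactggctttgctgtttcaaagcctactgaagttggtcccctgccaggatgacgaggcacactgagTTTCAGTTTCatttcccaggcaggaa
Of 27 listed genes with a promoter in the table, 17 (63.0%) held this core in the 250 bases before the start, against 1140 of 33469 promoters (3.41%) in all. It was present in 7 of the 13 genes at an unadjusted p under 0.05 and in 10 of the other 14. A match is a description of the letters and not a measured site.

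The gene with the largest difference was Ifi27l2b, a small interferon-inducible protein of the mitochondrial membrane family. Ifi27l2b was 11.43, 12.80, 12.76 and 12.79 in MI replicates 5 to 8 and 13.04, 13.995, 13.81 and 13.14 in MI+T4 replicates 5 to 8. All MI+T4 rats lay above all MI rats, and MI replicate 5 stood far below the other MI rats. The MI+T4 mean was 2.07 times the MI mean (log2 1.05, 95% interval 0.31 to 1.79, unadjusted p = 0.00910 and adjusted p = 0.889 from limma). The related Ifi27 was at 1.20 times the MI mean (log2 0.27, unadjusted p = 0.0244).

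Transcription factors of the response were among the members. Irf7 had levels of 9.07, 9.97, 10.31 and 9.79 in the MI rats and 10.11, 11.25, 10.66 and 10.44 in the MI+T4 rats. Irf7, which drives further interferon production, was at 1.78 times the MI mean (log2 0.83, 95% interval 0.24 to 1.43, unadjusted p = 0.0101), and its groups overlapped because MI replicate 7 lay above MI+T4 replicate 5. Irf9, a DNA-binding factor of the interferon response, was at 1.22 times the MI mean (log2 0.28, unadjusted p = 0.0189).

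Antiviral effectors, which act on viral RNA and particles, were higher by up to log2 0.81. Mx1 measured 8.93, 9.81, 9.98 and 9.57 in MI and 9.74, 11.16, 10.34 and 10.13 in MI+T4 replicates 5 to 8. Mx1, a GTPase that traps viral particles, was at 1.71 times the MI mean (log2 0.77, 95% interval 0.10 to 1.45, unadjusted p = 0.0283). Its paralog Mx2 was at 1.75 times the MI mean (log2 0.81, unadjusted p = 0.0483). Oasl2 was 8.97, 9.41, 9.68 and 9.43 in MI replicates 5 to 8 and 9.61, 10.21, 9.90 and 9.80 in MI+T4 replicates 5 to 8. Oasl2, a relative of the oligoadenylate synthetases that sense double-stranded RNA, was at 1.42 times the MI mean (log2 0.51, 95% interval 0.16 to 0.86, unadjusted p = 0.00734). Oasl was at 1.35 times (log2 0.44, unadjusted p = 0.0105) and Oas1a at 1.29 times the MI mean (log2 0.37, unadjusted p = 0.0156). The probe sequences were not used here, so signal shared between such close relatives could not be separated.

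Regulators that restrain or sense the response lay in the same direction. Dhx58 had levels of 8.07, 8.29, 8.39 and 8.32 in the MI rats and 8.53, 8.71, 8.48 and 8.41 in the MI+T4 rats. Dhx58, a helicase that tunes the sensing of viral RNA, was at 1.21 times the MI mean (log2 0.27, 95% interval 0.10 to 0.44, unadjusted p = 0.00420). Its groups did not overlap, as was also true of Ifi35 (log2 0.18, unadjusted p = 0.00673). Usp18, a protease that removes the ubiquitin-like protein Isg15 and damps interferon signaling, was at 1.33 times the MI mean (log2 0.41, unadjusted p = 0.0180). Cmpk2, a mitochondrial nucleotide kinase, was at 1.30 times (log2 0.38, unadjusted p = 0.0195). Trafd1, a feedback inhibitor of innate immune signaling outside the list, was at 1.17 times the MI mean (log2 0.23, unadjusted p = 0.00125) with groups that did not overlap.

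Other members differed less. Ifi44, Ifi44l, Ifi47 and Sp110 were between log2 0.23 and 0.37 higher at unadjusted p-values from 0.0219 to 0.0473. Rtp4 was at 1.62 times the MI mean (log2 0.69) but its unadjusted p was 0.0535. Isg15 (log2 0.06) and Ifit1 (log2 -0.02) were near the bottom of the scale in all rats, at means from 7.37 to 7.68. Ifitm1 (log2 -0.20) and Ifitm3 (log2 -0.08), membrane proteins that block viral entry, were not higher in MI+T4.

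The interferon pattern leaned on 2 rats. Of the 38 genes, 28 were highest of the 8 rats in MI+T4 replicate 6, and 26 were lowest in MI replicate 5. The median of the list relative to the MI mean was 0.41 in MI+T4 replicate 6 and 0.10, 0.18 and 0.12 in MI+T4 replicates 5, 7 and 8. It was -0.15 in MI replicate 5 and 0.03, 0.13 and 0.01 in MI replicates 6, 7 and 8, so that MI replicate 7 lay above MI+T4 replicates 5 and 8. In Sham rats it ranged from -0.12 to 0.06. Without MI+T4 replicate 6 the number at an unadjusted p under 0.05 was 6, without MI replicate 5 it was 9, and without both, a setting chosen after seeing the data, it was 3, with a median of log2 0.11. The markers of T and NK cells had a median of log2 0.01 (6 of 9 higher) and those of macrophages of log2 -0.10 (3 of 8 higher), and their part in the interferon result was not tested. Their summed linear signals overlapped between the groups, at 2413 to 2932 in MI and 2694 to 2891 in MI+T4 rats for T and NK cells, and 10456 to 17525 and 8141 to 17236 for macrophages.

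**Figure D2:**
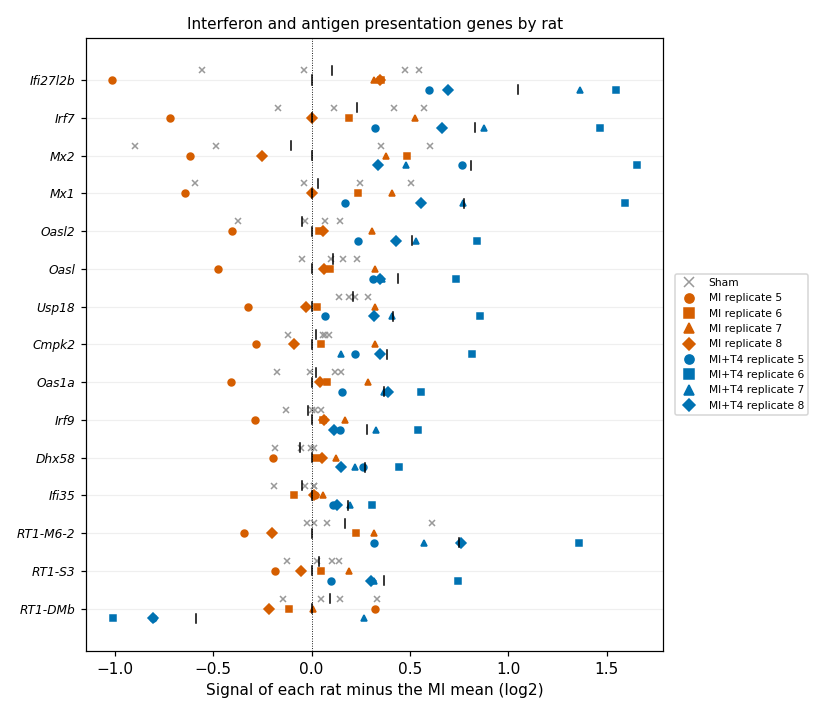
Signals of interferon genes and 3 antigen presentation genes are plotted for each rat as log2 differences from the MI mean, with Sham as crosses, MI in orange and MI+T4 in blue, symbols for replicates 5 to 8 and black bars for group means. MI+T4 replicate 6 (blue squares) lies highest and MI replicate 5 (orange circles) lowest for most interferon genes, and RT1-DMb runs the other way, except in MI+T4 replicate 7.

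Antigen presentation genes, many of which interferon also induces, were mixed. Of 28 measured, 17 were higher and 11 lower, with a median of log2 0.05. At an unadjusted p under 0.05, 6 were higher and 2 lower (28.6% of the list, against 5.45% of all probes). RT1-M6-2 measured 10.01, 10.58, 10.67 and 10.15 in MI and 10.67, 11.71, 10.92 and 11.11 in MI+T4 replicates 5 to 8. RT1-M6-2, a non-classical class I gene of the rat, was at 1.68 times the MI mean (log2 0.75, 95% interval 0.28 to 1.23, unadjusted p = 0.00480). RT1-T24-4 (log2 0.40, unadjusted p = 0.0303), RT1-S3 (log2 0.37, unadjusted p = 0.00975), RT1-N3 (log2 0.22, unadjusted p = 0.0495) and Tapbp, which loads peptides onto class I molecules (log2 0.21, unadjusted p = 0.0401), were also higher. RT1-M3-1 was higher by log2 0.11 (unadjusted p = 0.00465) with groups that did not overlap.

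Class II genes, which serve helper T cells, were lower where they reached an unadjusted p of 0.05. RT1-DMb was 11.54, 11.10, 11.23 and 11.002 in MI replicates 5 to 8 and 10.41, 10.21, 11.49 and 10.41 in MI+T4 replicates 5 to 8. RT1-DMb, which helps load peptides onto class II molecules, was at 0.665 times the MI mean (log2 -0.59, 95% interval -1.09 to -0.09, unadjusted p = 0.0243), and MI+T4 replicate 7 stood at the level of the MI rats. Ciita, the master regulator of class II genes, was lower by log2 0.09 (unadjusted p = 0.0479) at a level near the median probe. Cd74, the class II invariant chain (log2 -0.04), and B2m, the class I light chain (log2 0.04), had intervals that include 0.

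RT1-A2, a classical class I gene, had levels of a different kind. RT1-A2 had levels of 10.56, 10.59, 11.50 and 10.87 in the MI rats and 10.50, 10.997, 7.84 and 11.08 in the MI+T4 rats. It measured 7.74, 7.83 and 7.76 in Sham replicates 1 to 3 and 11.21 in Sham replicate 4, so that 4 of the 12 rats lay near the bottom of the scale and 8 above 10. Many RT1 class I genes are close copies of each other that vary between animals of an outbred strain, and their probes may read more than 1 gene. The difference between MI+T4 and MI for this gene was log2 -0.78, with a 95% interval from -2.55 to 1.00.

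Classical cardiac targets of thyroid hormone differed little. Of 9 measured genes known to be raised by the hormone, 5 were higher and 4 lower, with a median of log2 0.04. At an unadjusted p under 0.05 there was 1 (11.1% of the list, against 5.45% of all probes). Myh6 measured 15.93, 16.12, 16.05 and 16.03 in MI and 16.18, 16.15, 16.21 and 16.12 in MI+T4 replicates 5 to 8. Myh6, the fast myosin heavy chain, was at 1.09 times the MI mean (log2 0.13, 95% interval 0.03 to 0.23, unadjusted p = 0.0161), and the groups met at MI replicate 6 and MI+T4 replicate 8. Atp2a2 was 16.000, 16.31, 16.15 and 16.25 in MI replicates 5 to 8 and 16.37, 16.38, 16.30 and 16.20 in MI+T4 replicates 5 to 8. Atp2a2, the calcium pump of the sarcoplasmic reticulum, was at 1.10 times the MI mean (log2 0.13, unadjusted p = 0.0527). Both genes are near the top of the scale. The others included the glucose transporter Slc2a4 (log2 0.11), the potassium channel Kcnd2 (log2 -0.05), the beta-adrenergic receptor Adrb1 (log2 -0.03) and the natriuretic peptide Nppa (log2 -0.19), which had unadjusted p-values from 0.482 to 0.754. Adrb1 was near the bottom of the scale, at means of 7.62 in MI and 7.59 in MI+T4. Nppa, also one of the atrial muscle markers, measured 15.84, 14.89, 14.86 and 16.12 in MI and 16.08, 14.34, 16.33 and 14.22 in MI+T4 replicates 5 to 8.

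Genes known to be lowered by the hormone did not lie lower as a list. Of 5 measured, 3 were higher and 2 lower in MI+T4, none at an unadjusted p under 0.05, with a median of log2 0.05. Myh7 had levels of 15.92, 16.10, 16.13 and 16.09 in the MI rats and 16.004, 16.24, 16.19 and 16.004 in the MI+T4 rats. Myh7, the slow myosin, was at 1.04 times the MI mean (log2 0.05, 95% interval -0.11 to 0.21, unadjusted p = 0.506), also near the top of the scale. Slc8a1, the sodium-calcium exchanger (log2 0.10, unadjusted p = 0.0610), and Adcy5, an adenylyl cyclase (log2 0.49, unadjusted p = 0.171), were not below the MI mean. Slc8a1 was near the bottom of the scale, at means of 7.80 in MI and 7.89 in MI+T4. Among 13 targets best known from liver, fat and other tissues, 8 were higher and 5 lower and none reached an unadjusted p of 0.05. Malic enzyme Me1 (log2 0.23, unadjusted p = 0.0698) and the transcription factor Klf9 (log2 -0.22, unadjusted p = 0.323) lay at the ends of the range of differences in this list.

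The receptors, their partners and the enzymes that handle the hormone had small differences. Of 16 measured, 9 were higher and 7 lower (median log2 0.02). Rxrb was the 1 member at an unadjusted p under 0.05 (6.25% of the list, near the 5.45% of all probes). Thra had a difference of log2 -0.00 (95% interval -0.30 to 0.30), Thrb of log2 0.05 (-0.13 to 0.22) and Rxra of log2 -0.04 (-0.17 to 0.09). Rxrb measured 11.37, 11.56, 11.51 and 11.44 in MI and 11.66, 11.71, 11.58 and 11.60 in MI+T4 replicates 5 to 8. Rxrb, a retinoid X receptor, was at 1.12 times the MI mean (log2 0.17, 95% interval 0.05 to 0.28, unadjusted p = 0.00793). Its groups did not overlap, which held for 2.99% of all probes, and a second probe of the gene gave log2 0.16 (unadjusted p = 0.0176). The deiodinases Dio2 (log2 0.03) and Dio3 (log2 -0.03), which activate and inactivate the hormone, had means from 7.56 to 7.82, near the bottom of the scale.

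**Figure D3:**
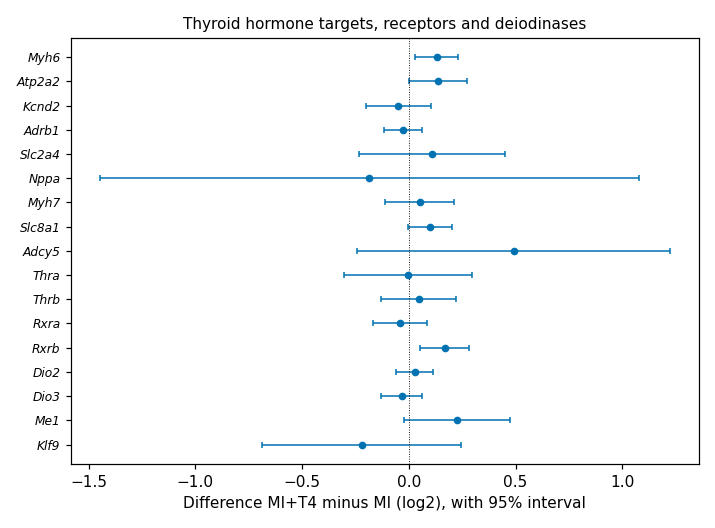
Points are log2 differences between MI+T4 and MI for genes that thyroid hormone is known to regulate and for its receptors and deiodinases, with 95% intervals from limma (n = 4 rats each). The intervals of Myh6 and Rxrb exclude 0 without adjustment, and the widest are those of Nppa and Adcy5.

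Vessel growth factors and their receptors gave differences in both directions. Of 27 measured genes, 15 were higher and 12 lower (median log2 0.01). At an unadjusted p under 0.05, 2 were higher and 3 lower (18.5% of the list, against 5.45% of all probes). Angpt2 was 8.91, 8.62, 8.52 and 8.94 in MI replicates 5 to 8 and 8.38, 8.49, 8.62 and 8.46 in MI+T4 replicates 5 to 8. Angpt2, which loosens vessels by blocking the receptor Tek, was at 0.838 times the MI mean (log2 -0.26, 95% interval -0.44 to -0.07, unadjusted p = 0.0121). The groups overlapped, and MI replicates 5 and 8 were the 2 highest rats, while the Sham mean was 8.47. Tek itself differed by log2 0.07 (unadjusted p = 0.467). Cxcl12 had levels of 12.02, 11.21, 11.04 and 11.93 in the MI rats and 11.001, 11.08, 11.01 and 11.05 in the MI+T4 rats. Cxcl12, a chemokine that recruits progenitor cells, was at 0.700 times the MI mean (log2 -0.51, 95% interval -0.94 to -0.09, unadjusted p = 0.0226). The 4 MI+T4 rats lay close to each other, at about the level of MI replicate 7, and below MI replicates 5 and 8.

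Fgf1 and Epas1 were the 2 higher members of this list at an unadjusted p under 0.05. Fgf1 measured 7.91, 8.16, 8.16 and 7.99 in MI and 8.28, 8.35, 8.26 and 8.30 in MI+T4 replicates 5 to 8. Fgf1, an acidic fibroblast growth factor that acts on vessels and myocytes, was at 1.18 times the MI mean (log2 0.24, 95% interval 0.12 to 0.37, unadjusted p = 0.00111), with groups that did not overlap, at levels close to the bottom of the scale. Epas1, a hypoxia-inducible factor, was higher by log2 0.24 (unadjusted p = 0.0191). Zfp36l1 was 12.16, 11.56, 11.63 and 11.75 in MI replicates 5 to 8 and 11.45, 11.28, 11.42 and 11.44 in MI+T4 replicates 5 to 8. Zfp36l1, which destabilizes messages such as that of Vegfa, was at 0.768 times the MI mean (log2 -0.38, unadjusted p = 0.00770), and its groups did not overlap.

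Genes of Ras signaling had some of the smallest p-values of the comparison. Of 25 measured, 11 were higher and 14 lower, with a median of log2 -0.01. At an unadjusted p under 0.05, 2 were higher and 3 lower (20% of the list, against 5.45% of all probes). Rasa1 had levels of 9.61, 9.44, 9.59 and 9.44 in the MI rats and 9.19, 9.20, 9.09 and 9.34 in the MI+T4 rats. Rasa1, which switches Ras off, had the smallest p of all named genes (0.805 times the MI mean, log2 -0.31, 95% interval -0.45 to -0.18, unadjusted p = 0.000281), and its groups did not overlap. Spred1 measured 8.56, 8.83, 8.72 and 8.85 in MI and 8.97, 8.87, 9.12 and 9.09 in MI+T4 replicates 5 to 8. Spred1, an inhibitor that holds Raf in check, was at 1.21 times the MI mean (log2 0.27, unadjusted p = 0.00183), again with no overlap. Rala, a Ras-like GTPase (log2 -0.28, unadjusted p = 0.00441), and Ywhaq, a 14-3-3 protein that binds Raf (log2 -0.34, unadjusted p = 0.00666), were lower, and the kinase Map2k2 was higher (log2 0.14, unadjusted p = 0.0352).

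Innate signaling through Card9 was also represented. Card9 was 9.99, 10.58, 10.34 and 9.76 in MI replicates 5 to 8 and 10.53, 10.80, 10.34 and 10.73 in MI+T4 replicates 5 to 8. Card9, an adaptor that links fungal sensing receptors to NF-kB, was at 1.35 times the MI mean (log2 0.43, unadjusted p = 0.0243), with groups that overlapped. Nfkbib, an inhibitor of NF-kB, was lower (log2 -0.18, unadjusted p = 0.0195) with no overlap. The ubiquitin ligase Traf6, near the bottom of the scale, was lower by log2 0.10 (unadjusted p = 0.0209). Of 15 genes of this list, 5 were higher and 10 lower (median log2 -0.00). An unadjusted p under 0.05 was reached by 20% of them, against 5.45% of all probes.

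Other genes with small p-values had no list in common. Dis3 had levels of 8.52, 8.25, 8.27 and 8.43 in the MI rats and 8.15, 8.06, 8.16 and 8.09 in the MI+T4 rats. Dis3, a nuclease of the RNA exosome, was at 0.840 times the MI mean (log2 -0.25, unadjusted p = 0.000572). Zbtb33, a repressor that binds methylated DNA (log2 -0.21, unadjusted p = 0.000717), Pdcd10, a protein of vessel integrity (log2 -0.14, unadjusted p = 0.000735), and Tmem30a, a subunit of lipid flippases (log2 -0.26, unadjusted p = 0.000748), were lower too, each with no overlap. Cdk14 measured 9.64, 9.25, 9.35 and 9.39 in MI and 8.96, 8.77, 9.23 and 9.06 in MI+T4 replicates 5 to 8. Cdk14, a kinase of Wnt signaling, was the only one of 22 genes of its list below an unadjusted p of 0.05 (4.55%, near the 5.45% of all probes). Psmg2, a chaperone of proteasome assembly (log2 -0.31, unadjusted p = 0.00115), Bub1, a kinase of the mitotic checkpoint (log2 -0.21, unadjusted p = 0.00151), and the mitochondrial ribosomal gene Mrpl52 (log2 -0.20, unadjusted p = 0.00200) were also lower. Bub1 was near the bottom of the scale, at means of 8.03 in MI and 7.82 in MI+T4.

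Some genes were picked by the size of their difference among probes with no overlap, and 2.99% of all probes had no overlap. Itm2a was 12.30, 11.18, 11.14 and 11.56 in MI replicates 5 to 8 and 10.93, 11.01, 11.03 and 10.97 in MI+T4 replicates 5 to 8. Itm2a, a membrane protein of differentiating muscle and cartilage cells, was at 0.677 times the MI mean (log2 -0.56, 95% interval -0.99 to -0.14, unadjusted p = 0.0135). MI replicate 5 stood far above the other MI rats, and the 4 MI+T4 rats lay within the Sham range of 10.86 to 11.19. Paip1, which promotes translation with the poly(A)-binding protein (log2 -0.44, unadjusted p = 0.00455), Nfix, a transcription factor of muscle development (log2 -0.39, unadjusted p = 0.00698), and Plag1, a zinc finger factor of growth control (log2 -0.29, unadjusted p = 0.00361), were lower.

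Bckdha had levels of 11.52, 11.60, 11.56 and 11.46 in the MI rats and 11.78, 12.03, 11.71 and 12.12 in the MI+T4 rats. Bckdha, the alpha subunit of the branched-chain keto acid dehydrogenase, was at 1.30 times the MI mean (log2 0.37, 95% interval 0.15 to 0.60, unadjusted p = 0.00334), with no overlap and a Sham mean of 11.89. Ivd, which acts later in the breakdown of leucine, was at 1.20 times the MI mean (log2 0.26, unadjusted p = 0.0220), and at log2 0.14 without MI replicate 5, its lowest rat. Of 21 measured genes of branched-chain amino acid breakdown, 15 were higher and 6 lower. Bckdha and Ivd were the 2 at an unadjusted p under 0.05 (9.52% of the list, against 5.45% of all probes). The median of the list was log2 0.06, and it ranged from 0.01 without MI replicate 8 to 0.11 without MI+T4 replicate 7.

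Spock2 measured 8.69, 8.67, 8.87 and 8.67 in MI and 9.43, 8.93, 9.04 and 9.09 in MI+T4 replicates 5 to 8. Spock2, a proteoglycan that binds calcium, was at 1.32 times the MI mean (log2 0.40, unadjusted p = 0.00545). Chn1, a GTPase-activating protein for Rac (log2 0.26, unadjusted p = 0.00125), Ggct, an enzyme of glutathione turnover (log2 0.24, unadjusted p = 0.000969), Pdcd11, a factor of ribosome assembly (log2 0.22, unadjusted p = 0.00170), and the RNA-binding protein Puf60 (log2 0.17, unadjusted p = 0.00264) were higher with no overlap. Gpc4, a glypican of the cell surface, was higher by log2 0.32 (unadjusted p = 0.00228) with overlap. Fam229a was higher by log2 0.59 (95% interval 0.19 to 0.99, unadjusted p = 0.00782) with no overlap.

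Outside the pathway lists, the genes beyond 1.5-fold at an unadjusted p under 0.05 were Fam229a, Pla2g2a, Penk, Myoc, Nsl1 and Slc15a4, and Penk, Pla2g2a and Slc15a4 were picked after their values were seen. Myoc was 7.86, 9.08, 8.31 and 8.37 in MI replicates 5 to 8 and 9.21, 9.12, 9.15 and 8.88 in MI+T4 replicates 5 to 8. Myoc, the extracellular protein myocilin, was at 1.60 times the MI mean (log2 0.68, unadjusted p = 0.00459), and only MI replicate 6 reached the MI+T4 rats. Penk had levels of 12.47, 12.13, 13.41 and 11.72 in the MI rats and 12.80, 13.36, 12.64 and 13.94 in the MI+T4 rats. Penk, the precursor of enkephalin peptides, was at 1.69 times the MI mean (log2 0.76, unadjusted p = 0.0410) with broad overlap. Pla2g2a, a secreted phospholipase of inflammation, was at 0.586 times the MI mean (log2 -0.77, unadjusted p = 0.0331), with 11.04 in MI+T4 replicate 8 and 12.98 in MI+T4 replicate 5. Nsl1, a kinetochore protein, was at 1.64 times the MI mean (log2 0.71, unadjusted p = 0.0107). Slc15a4, a peptide transporter of endosomes, was at 1.58 times the MI mean (log2 0.66, unadjusted p = 0.0447), with 8.58 in MI replicate 5 and 9.53 in MI replicate 8, while MI replicates 6 and 7 measured 10.16 and 10.28 and the MI+T4 rats 10.26 to 10.36.

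**Figure D4:**
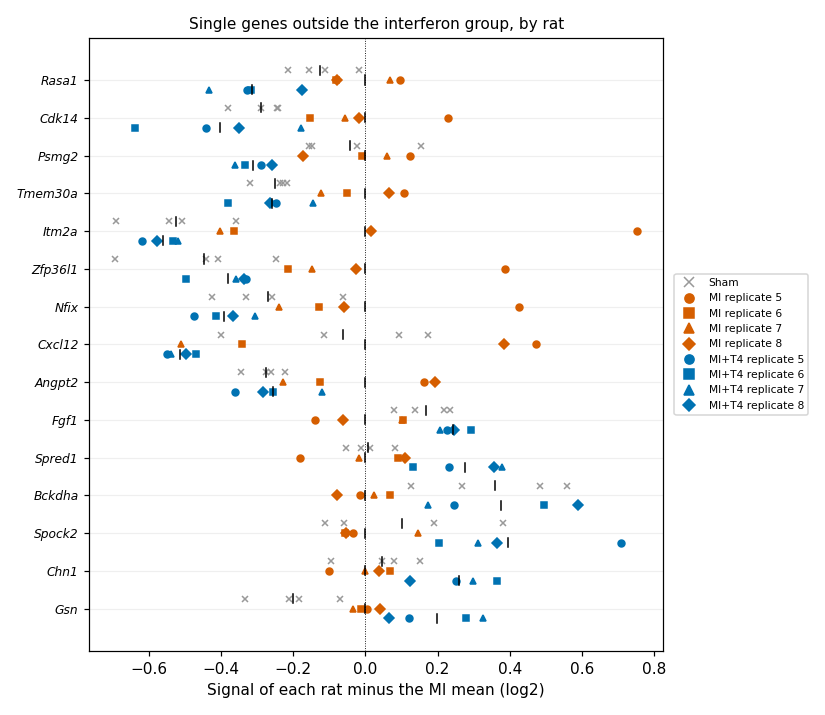
Signals of 15 genes outside the interferon list are plotted for each rat as log2 differences from the MI mean, with symbols, colours and black group means as in the interferon plot. Rasa1, Cdk14, Itm2a, Zfp36l1 and Nfix have all MI+T4 rats left of all MI rats, and Fgf1, Spred1, Bckdha and Spock2 have them on the right, while Cxcl12 and Angpt2 overlap.

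Genes of the extracellular matrix were mostly lower in MI+T4, and they varied widely between the rats of a group. Of 13 collagen genes, 12 were lower in MI+T4 (median log2 -0.30), and 0 reached an unadjusted p of 0.05. Col1a1 measured 12.15, 10.50, 10.28 and 11.95 in MI and 10.67, 10.34, 11.41 and 9.84 in MI+T4 replicates 5 to 8. Col1a1, the main fibrillar collagen chain, was at 0.634 times the MI mean (log2 -0.66, 95% interval -1.58 to 0.27, unadjusted p = 0.149). Col3a1 (log2 -0.59, unadjusted p = 0.121) and Col8a1 (log2 -0.65, unadjusted p = 0.133) behaved alike. MI replicates 5 and 8 and MI+T4 replicate 7 were high, and the other 5 rats were low.

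Other matrix genes followed the same rats. Of 37 matrix glycoproteins and enzymes, 33 were lower (median log2 -0.25), 1 of them at an unadjusted p under 0.05. Of the 4 higher ones 2 reached that level, Spock2 and the actin-severing protein Gsn (log2 0.20, unadjusted p = 0.00911). In both directions together this was 8.11% of the list, against 5.45% of all probes. Fbln1 was 14.17, 13.26, 13.28 and 13.93 in MI replicates 5 to 8 and 13.32, 13.10, 13.56 and 12.78 in MI+T4 replicates 5 to 8. Fbln1, a glycoprotein of elastic fibers, was at 0.722 times the MI mean (log2 -0.47, unadjusted p = 0.0387). The list was lowest in MI+T4 replicate 8 for 25 of 37 genes, and highest in MI replicate 5 for 17 and in MI replicate 8 for 13. With the 3 high rats left out together, chosen after seeing the data, the median was log2 -0.0026 for this list and -0.09 for the collagens.

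Fibroblast markers followed the same rats as the matrix genes. Of 10 measured, 9 were lower in MI+T4 and 0 reached an unadjusted p of 0.05 (median log2 -0.27), and their summed linear signal was 55070 to 108343 in MI and 53736 to 79862 in MI+T4 rats. In bulk tissue, fewer fibroblasts and less RNA per fibroblast cannot be told apart, and the part of cell number in the matrix result was not tested. Among 23 measured genes of TGF-beta and IGF signaling, 9 were higher and 14 lower (median log2 -0.05). At an unadjusted p under 0.05, 0 were higher and 2 lower (8.7% of the list, against 5.45% of all probes). These 2 were the regulators Smad3 (log2 -0.10, unadjusted p = 0.0355) and Smad4 (log2 -0.13, unadjusted p = 0.0268) of TGF-beta signaling. Smad3 was near the bottom of the scale. Endothelial markers (median log2 0.01) and smooth muscle and pericyte markers (median log2 0.0025) were close to the median of all probes.

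Most genes of energy metabolism had small differences above 0. Of 28 genes of fatty acid uptake and oxidation, 22 were higher and 6 lower (median log2 0.08), and 0 reached an unadjusted p of 0.05. The list was lowest in MI+T4 replicate 7 for 16 of the 28 genes, with a median 0.30 below the MI mean, while MI+T4 replicates 6 and 8 lay 0.31 and 0.30 above it. Of 56 genes of oxidative phosphorylation, 44 were higher and 12 lower (median log2 0.05). Atp5mg, a subunit of the ATP synthase, was lower (log2 -0.20, unadjusted p = 0.0259). It was the 1 member at an unadjusted p under 0.05 (1.79% of the list, against 5.45% of all probes). In glycolysis, 18 of 28 genes were higher and 10 lower (median log2 0.04). At an unadjusted p under 0.05, 1 was higher and 1 lower (7.14% of the list, near the 5.45% of all probes). Hk2 had levels of 8.86, 9.13, 9.06 and 9.06 in the MI rats and 9.18, 9.28, 9.15 and 9.31 in the MI+T4 rats. Hk2, which traps glucose in the cell, was at 1.15 times the MI mean (log2 0.20, unadjusted p = 0.00931). Pfkl, a phosphofructokinase mainly of liver, was at 0.834 times the MI mean (log2 -0.26, unadjusted p = 0.0224). Both had no overlap between the groups, which held for 2.99% of all probes. Without MI replicate 5, its highest rat, the difference of Pfkl was log2 -0.15. The MI rats high in matrix genes, replicates 5 and 8, were the lower 2 MI rats in fatty acid oxidation genes.

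**Figure D5:**
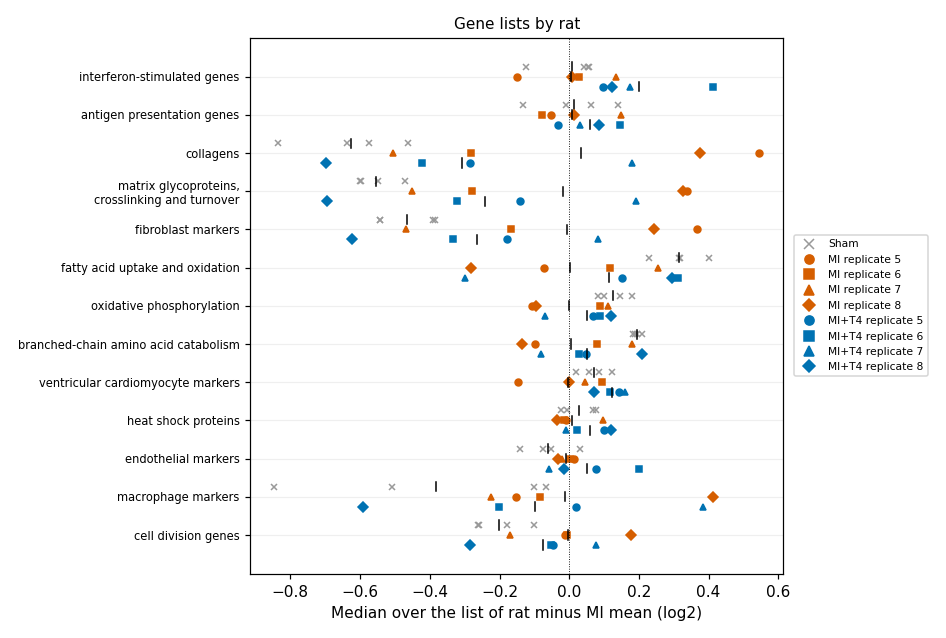
For 13 gene lists, each point is the median over the list of a rat's log2 difference from the MI mean, with Sham as crosses, MI in orange, MI+T4 in blue, symbols for replicates 5 to 8 and black bars for the mean of each group. The interferon list is high in MI+T4 replicate 6, and the collagens, matrix genes and fibroblast markers are high in MI replicates 5 and 8 and MI+T4 replicate 7.

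Contractile and electrical genes showed small differences. Of 9 ventricular cardiomyocyte markers, 7 were higher (median log2 0.13). At an unadjusted p under 0.05 there were 3 (33.3% of the list, against 5.45% of all probes). They were Myh6, the light chain Myl3 (log2 0.16, unadjusted p = 0.0201) and the creatine kinase Ckm (log2 0.14, unadjusted p = 0.0423). By quantile normalization the median was log2 0.05, with Myh6 at 0.05 and Myl3 at 0.04, and these probes are near the top of the scale. Their summed linear signal was 361474 to 428334 in MI and 406057 to 442590 in MI+T4 rats. Of 21 sarcomere genes, 14 were higher and 7 lower (median log2 0.05). At an unadjusted p under 0.05, 3 were higher and 2 lower (23.8% of the list, against 5.45% of all probes). Besides Myh6 and Myl3, Tpm1 was higher (log2 0.18, unadjusted p = 0.0282). Tpm1 was near the top of the scale, at means of 16.03 in MI and 16.20 in MI+T4, and at log2 0.09 by quantile normalization. Troponin C, Tnnc1 (log2 -0.24, unadjusted p = 0.0399), and skeletal actin, Acta1 (log2 -0.45, unadjusted p = 0.0437), were lower. Casq2 measured 10.52, 11.44, 11.22 and 10.98 in MI and 11.46, 11.37, 11.43 and 11.53 in MI+T4 replicates 5 to 8. Casq2, which buffers calcium in the sarcoplasmic reticulum, was at 1.33 times the MI mean (log2 0.41, unadjusted p = 0.0190), and MI replicate 5 was far the lowest of the 8 rats.

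Of 20 measured potassium, pacemaker and sodium channel genes, 13 were higher and 7 lower (median log2 0.03). At an unadjusted p under 0.05, 0 were higher and 2 lower (10% of the list, against 5.45% of all probes). Kcnip2 was 12.87, 12.76, 12.87 and 12.82 in MI replicates 5 to 8 and 12.75, 12.23, 12.40 and 12.65 in MI+T4 replicates 5 to 8. Kcnip2, a subunit of the transient outward potassium channel, was at 0.799 times the MI mean (log2 -0.32, 95% interval -0.59 to -0.06, unadjusted p = 0.0204) with no overlap, and the Sham mean was 13.02. Abcc9, the sulfonylurea receptor of the potassium channel that ATP closes, was at 0.839 times the MI mean (log2 -0.25, unadjusted p = 0.0103). Of 19 adrenergic and cyclic AMP genes, 9 were higher and 10 lower (median log2 -0.0032). At an unadjusted p under 0.05, 2 were higher and 1 lower (15.8% of the list, against 5.45% of all probes). The receptor Adra1b (log2 0.21, unadjusted p = 0.0473) and the anchor protein Akap6 (log2 0.14, unadjusted p = 0.0177) were higher. The phosphodiesterase Pde3a, near the median probe, was lower (log2 -0.08, unadjusted p = 0.0325).

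Heat shock and antioxidant genes are known to protect myocytes under stress. Of 15 heat shock genes, 12 were higher (median log2 0.09), 3 at an unadjusted p under 0.05: Hspb1 (log2 0.22, unadjusted p = 0.0434), Cryab (log2 0.15, unadjusted p = 0.0202) and Hspb8 (log2 0.10, unadjusted p = 0.0395), small chaperones abundant in muscle. These 3 were 20% of the list, against 5.45% of all probes. Cryab was near the top of the scale, at means of 16.15 in MI and 16.30 in MI+T4. Its difference was log2 0.03 by quantile normalization and 0.09 without MI replicate 5. Of 30 antioxidant genes, 17 were higher (median log2 0.03). At an unadjusted p under 0.05, 4 were higher and 1 lower (16.7% of the list, against 5.45% of all probes). Catalase Cat (log2 0.25, unadjusted p = 0.0319), the glutathione transferase Gstm2 (log2 0.34, unadjusted p = 0.0232, and 0.20 without MI replicate 5) and the glutathione synthetase Gss (log2 0.09, unadjusted p = 0.0450) were higher, and Gclm, the regulatory subunit for glutathione synthesis, was lower (log2 -0.09, unadjusted p = 0.0385). For Gstp1 the brightest probe gave log2 0.21 (unadjusted p = 0.0475), and the other 2 probes gave 0.02 and -0.07.

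Genes of cell division were lower in 20 of 30 (median log2 -0.09), and 3 reached an unadjusted p of 0.05, all lower: Bub1, the replication clamp Pcna (log2 -0.19, unadjusted p = 0.0160) and the centromere protein Itgb3bp (log2 -0.29, unadjusted p = 0.0145). These 3 were 10% of the list, against 5.45% of all probes. The list was lowest in MI+T4 replicate 8 (-0.29 from the MI mean) and highest in MI replicate 8 (0.18). Of the other lists, clock genes, immediate early genes and the PPAR, PGC-1 and ERR regulators had 0 members at an unadjusted p under 0.05, with medians from log2 -0.04 to 0.01. Of 42 cytosolic ribosomal protein genes, 1 was higher and 1 lower at that level, which is 4.76% and near the share of all probes.

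The 47 matched genes that the study names for T4 against MI were chosen on these samples, and their direction is not independent evidence: 23 were higher and 24 lower, all at an unadjusted p under 0.05, 46 passed nested F, and 0 passed after adjustment. The Sham rats are given as levels only, since every comparison with MI would use the same MI rats.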

How the data were processed

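RNA of 12 rats was measured on RatRef-12 BeadChips (Illumina), with 2 technical arrays each. The authors stabilized the variance of the signals and normalized them by robust splines. The deposited values are read as log2, since the methods describe that transformation. A table of non-normalized signals was not used, because 48 columns carry a BeadChip position and no sample name, so no detection filter was applied. Probes were named through the platform annotation and RefSeq genes of GRCr8: 13793 probes have a symbol (13337 genes), 8730 have none and 0 have several. A gene is given by its brightest probe.

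The arrays of each rat were averaged. A model with the means of the 3 groups was fitted to all 22523 probes with limma (version 3.58.1, with statmod 1.5.0 in R 4.3.3), on 9 residual degrees of freedom and 3.35 from the prior, and MI+T4 minus MI was adjusted by Benjamini-Hochberg at 5%. Unadjusted p-values in the text come from this fit, which was tested on simulated data. A ratio is 2 to the power of the log2 difference. Summed signals add 2 to the power of the log2 values over a list.

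Named genes were the 15 largest t values in each direction, the 10 largest differences in each direction without overlap between the rats, list members at an unadjusted p under 0.05 with up to 4 that define a pathway (all thyroid hormone targets), and genes the study names for T4. The text names some of them. The members and the 44 lists were chosen with earlier results of these data known. Alternatives were both arrays with a common correlation, nested F on that fit, only 8 rats, another prior, the arrays of each technical replicate, quantile normalization, a level filter, the replicate number as a block and each rat left out. Columns of the authors' own comparisons were not used. Python 3.11.15 with matplotlib 3.10.9 was used for the figures.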

Additional observations from a re-analysis of the deposited data

Results flagged for a closer look

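In groups of 4 rats, a value was marked where its gap to the nearest other rat took up more of the group's range than the 95% critical value of Dixon's test. Chance marks about 1 in 20 groups, and 15 of 332 groups of values were marked. Among interferon and antigen presentation genes, Ifi27l2b was low in MI replicate 5 (11.43, against 12.76 to 12.80 in the others), as was RT1-M3-1 (8.797, against 8.857 to 8.865). Oasl was high in MI+T4 replicate 6 (9.248, against 8.825 to 8.870), and RT1-DMb was high in MI+T4 replicate 7 (11.49, against 10.21 to 10.41). Trafd1 was high in MI replicate 7 (10.64, against 10.57 in the others).

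Of the other genes, Zfp36l1 was low in MI+T4 replicate 6 (11.28, against 11.42 to 11.45) and Spock2 high in MI replicate 7 (8.870, against 8.668 to 8.692). Traf6 was low in MI replicate 8 (7.638, against 7.735 to 7.751), Myl3 low in MI+T4 replicate 8 (16.15, against 16.28 to 16.31), Hspb1 low in MI replicate 6 (13.61, against 13.94 to 13.98), Gstp1 low in MI+T4 replicate 5 (11.62, against 11.84 to 11.88) and Pfkl high in MI replicate 5 (9.685, against 9.188 to 9.271). Of list medians relative to the MI mean, that of the PPAR, PGC-1 and ERR regulators was high in MI+T4 replicate 8 (0.091), that of T and NK cell markers low in MI replicate 7 (-0.094) and that of erythroid markers, which follow residual blood, high in MI replicate 8 (0.252).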

How the results depend on the processing

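The count of probes at an adjusted p under 0.05 was 0 under all alternatives but nested F on the fit of both arrays, which gave 94. The smallest adjusted p was 0.121 with both arrays in the fit, where 0 passed without that rule, and 0.554 or more when 1 rat was left out. Leaving out 1 rat at a time gave 426 (without MI replicate 5) to 927 (without MI replicate 7) probes higher and 339 (without MI replicate 5) to 814 (without MI replicate 7) lower at an unadjusted p under 0.05, and 1068 to 1494 without overlap, a count that is larger by construction with fewer rats. Of the interferon genes, 6 to 22 were then higher at that level. With only probes above the median level, 360 were higher and 287 lower, and 331 did not overlap. Without MI replicate 5 and MI+T4 replicate 6, chosen after seeing the data, 344 were higher, 322 lower, 1831 did not overlap and 3 interferon genes reached an unadjusted p under 0.05. With the 3 rats high in matrix genes left out (MI replicates 5, 8 and MI+T4 replicate 7), also chosen then, 377 were higher, 4088 did not overlap and 2 interferon genes did so. With 2 to 3 rats left in a group, these tests have less power.

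The rats were not treated as pairs by replicate number, since the study assigned them to the groups at random. Same-numbered rats correlated at 0.11, 0.25, -0.53 and -0.48 in their deviations from the group means. Such deviations sum to 0 within a group, so these correlations cannot show whether the numbers pair the rats. With the number as a block 0 probes passed, 463 were higher and 382 lower at an unadjusted p under 0.05, and the interferon count was 17.

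Of 122 genes in the text, 111 kept their direction under every alternative run, and 0 of the 95 at an unadjusted p under 0.05 turned. The 95 stood out on these same rats, which the alternatives use again, so a turn was unlikely from the start. Turned values with another normalization or the arrays of a technical replicate were Myh7 -0.0396 and Thra 0.0070 (quantile), and Thra 0.0592, Dio2 -0.0352 and Ifit1 0.0317 (arrays of technical replicate 2), and Ifitm3 was 0.0534 without MI replicate 5 and MI+T4 replicate 6. Leaving out 1 rat, the log2 difference ranged from -0.55 to 0.16 for Nppa, -0.0080 to 0.28 for Slc2a4, -0.13 to 0.0837 for Thra, -0.0033 to 0.11 for Thrb, -0.0900 to 0.00038 for Kcnd2, -0.0107 to 0.0844 for B2m, -0.0757 to 0.0053 for Cd74, -0.0571 to 0.0108 for Ifit1 and -0.19 to 0.0362 for Ifitm3. The causes were not tested.

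Of the 95, 26 moved by more than 1.5 times, all towards 0, when 1 rat was left out. The log2 differences without MI replicate 5 were 0.23 for Casq2, 0.0855 for Cryab, -0.30 for Fbln1, 0.20 for Gstm2, 0.23 for Ifi44l, 0.19 for Irf9, -0.19 for Itgb3bp, -0.31 for Itm2a, 0.14 for Ivd, -0.25 for Nfix, 0.23 for Oas1a, 0.28 for Oasl, -0.15 for Pfkl, 0.30 for Slc15a4 and -0.25 for Zfp36l1. Without MI+T4 replicate 6 they were 0.24 for Cmpk2, 0.50 for Mx1, 0.53 for Mx2, 0.13 for RT1-N3, 0.24 for RT1-S3, 0.13 for Tapbp and 0.26 for Usp18. Hspb1 was 0.14 without MI replicate 6, Adra1b 0.135 and RT1-T24-4 0.26 without MI replicate 8, and Pla2g2a -0.405 without MI+T4 replicate 8. By quantile normalization Cryab was 0.0279 and Tpm1 0.0870. On the arrays of technical replicate 1 alone Map2k2 was 0.22, Cryab 0.0877, Myl3 0.10, Pdcd10 -0.0896, Pde3a -0.0475 and Smad4 -0.0773. On those of technical replicate 2 alone Map2k2 was 0.0568 and Puf60 0.105. Leaving out 1 rat, list medians ranged from 0.16 to 0.24 for interferon genes, -0.51 to -0.12 for collagens, -0.44 to -0.11 for matrix genes, 0.03 to 0.22 for fatty acid oxidation, 0.08 to 0.17 for cardiomyocyte markers and -0.14 to 0.0062 for cell division genes.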
